A study of Mus musculus with 24 samples.

Results

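The release machinery described here comprised 42 genes whose proteins make up synaptic vesicles, dock and prime them at the active zone, fuse them with the presynaptic membrane and retrieve them. A gene belonged to the set by its name, and its measurements were the array probe sets that the array's annotation gives to that gene symbol alone. They numbered 111 probe sets, of 45101 on the array, and the 42 genes stood among 18194 named ones. Total RNA of whole mouse brain, taken at 4 months of age, was measured on 24 Affymetrix arrays in 4 groups of 6 samples: aSYN/Hsp70, aSYN alone, Hsp70 alone and wild type (wt). The labels do not spell out aSYN, read here as alpha-synuclein, nor say how either genotype was made, in which cells it acts or whether the samples came from separate animals. The p-values below therefore measure the spread between these samples, which may be technical.

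An arriving action potential opens calcium channels at the active zone, a protein scaffold that holds primed vesicles beside those channels. Calcium binds synaptotagmin on the vesicle, and SNARE proteins of the vesicle and the plasma membrane zip together and drive fusion. The ATPase NSF and its SNAP adaptors then take the SNARE complexes apart, and clathrin, endophilin, amphiphysin and dynamin recover the membrane. Alpha-synuclein is itself a presynaptic protein that binds vesicle membranes and SNAREs, and the vesicle chaperone encoded by Dnajc5 works with a member of the HSP70 family.

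Promoter windows are shown for Syt1, the gene whose probe sets passed the test below, for Cplx1 and Vamp1, whose probe sets came next by p in the same comparison, and for Syn1, a synapsin gene long used to mark neurons. Each runs over the 250 bases before a start of transcription, 5′ to 3′ in the direction of the gene, from RefSeq on build GRCm38.p6. Capitals mark matches, on either strand, to the GC box GGGCGG, the CCAAT box CCAAT, the cyclic AMP response element TGACGTCA, the NRF1 core GCATGCGC and TTCAGCACC, a stretch of the element bound by the neuronal repressor REST. The Syt1 windows lie on the minus strand at chr10:109010976-109011225 and chr10:109009112-109009361, that of Cplx1 on the minus strand at chr5:108550028-108550277, that of Vamp1 on the plus strand at chr6:125215331-125215580 and that of Syn1 on the minus strand at chrX:20920919-20921168.
Syt1, upstream window: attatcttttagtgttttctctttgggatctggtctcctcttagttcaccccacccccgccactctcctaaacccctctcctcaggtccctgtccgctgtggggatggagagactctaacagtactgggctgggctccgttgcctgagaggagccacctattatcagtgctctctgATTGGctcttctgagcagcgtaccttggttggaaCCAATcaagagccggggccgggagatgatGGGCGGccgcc
Syt1, downstream window: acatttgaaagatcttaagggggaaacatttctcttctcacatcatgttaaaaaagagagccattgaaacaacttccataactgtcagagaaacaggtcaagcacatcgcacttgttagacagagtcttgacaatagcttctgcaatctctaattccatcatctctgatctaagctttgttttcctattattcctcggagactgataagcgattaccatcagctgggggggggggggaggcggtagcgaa
Cplx1: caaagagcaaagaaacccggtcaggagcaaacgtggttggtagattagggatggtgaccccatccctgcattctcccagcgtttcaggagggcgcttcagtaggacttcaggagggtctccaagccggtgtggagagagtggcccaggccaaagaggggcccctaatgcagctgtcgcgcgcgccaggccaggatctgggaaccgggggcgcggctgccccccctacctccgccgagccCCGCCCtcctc
Vamp1: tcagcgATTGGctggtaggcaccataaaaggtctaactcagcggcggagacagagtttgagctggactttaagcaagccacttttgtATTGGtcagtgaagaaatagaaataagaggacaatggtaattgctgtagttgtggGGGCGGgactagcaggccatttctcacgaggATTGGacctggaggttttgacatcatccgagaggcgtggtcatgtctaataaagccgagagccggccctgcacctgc
Syn1: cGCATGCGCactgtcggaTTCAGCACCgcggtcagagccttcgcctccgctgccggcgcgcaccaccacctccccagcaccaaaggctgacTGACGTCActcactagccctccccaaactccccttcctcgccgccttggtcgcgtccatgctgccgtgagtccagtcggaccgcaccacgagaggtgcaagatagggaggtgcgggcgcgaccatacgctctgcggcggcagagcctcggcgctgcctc
The upstream Syt1 window held a GC box 11 bases and CCAAT boxes 74 and 40 bases before its start, whereas the downstream window held none of the letters searched. The Cplx1 window held a GC box, likewise 11 bases before its start. Vamp1 had a GC box at 108 and CCAAT boxes at 244, 163 and 77 bases, and Syn1 had the cyclic AMP response element at 159, the NRF1 core at 249 and the REST stretch at 232 bases.

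RefSeq windows were at hand for 34 of the 42 genes, 44 windows in all. The GC box was found in 56.8% of them and in 32.7% of all 32851 mouse windows of the same length, while the median GC content was 61.2% for release-machinery windows and 52.4% for all. The CCAAT box stood in 27.3% against 33.8% of all windows and TATAAA in 6.82% against 12.4%. The cyclic AMP response element was present in 2 windows, of Syn1 and Sh3gl2 (4.55% against 1.55%), and the NRF1 core in 3, of Syn1, Stxbp5 and Bsn (6.82% against 2.26%). Syn1 alone held the REST stretch, which 0.301% of all windows hold. These shares describe letters in the windows and were not tested.

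Values below are log2(intensity + 16) after quantile normalisation, a scale on which differences of dim probe sets are understated. After removal of the dimmest 40% of probe sets, 27022 were tested, among them 102 of the 111 release-machinery sets. The 9 sets left out belonged to Bsn, Nsf, Rims2, Snap91, Syn2, Napb, Rab3c, Syngr1 and Syp, each of which kept at least 1 tested set. For the set as a whole each gene was read by its brightest tested probe set, and 31 of the 42 genes had further sets. All 14 pan-neuronal, 12 of 12 astrocyte, 10 of 11 oligodendrocyte and 11 of 12 microglial marker genes were likewise bright enough to test. In RNA of a whole tissue, fewer cells of a type and less RNA per cell cannot be told apart.

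Release-machinery genes varied little between samples of a group. The median within-group SD was 0.168 log2 units over the 42 genes, against 0.252 over the 12929 genes tested, which were dimmer at the median. Dnajc5 varied least, with an SD of 0.065, and Sv2c most, with 0.93, followed by Syt2 at 0.72 and Rimbp2 at 0.37. The arrays differed in quality: 4 had limma weights under 0.5, namely aSYN/Hsp70 replicate 4 (0.124), Hsp70 replicates 3 (0.251) and 6 (0.332) and aSYN/Hsp70 replicate 3 (0.394). Of these, aSYN/Hsp70 replicate 4 gave the highest of the 24 values for 16 of the 42 genes and the lowest for 5, while the 20 arrays of greater weight were extreme for 0 to 10 genes each. Female samples, told by Xist and Y-linked probe sets, numbered 2 of 6 in aSYN/Hsp70, 4 in aSYN, 3 in Hsp70 and 4 in wt. For control transcripts probed at both ends, the 3′ signal minus the 5′ signal, a measure of RNA integrity and labelling, averaged 0.85 ± 0.091 in aSYN/Hsp70, 0.97 ± 0.083 in aSYN, 0.92 ± 0.18 in Hsp70 and 0.85 ± 0.13 in wt (SD, n = 6), and aSYN/Hsp70 minus aSYN was -0.13 (exact two-sided permutation p = 0.0368, unadjusted, the smallest of 5 such comparisons).

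The machinery as a whole stood at nearly one level in the 4 genotypes. The mean of the 42 genes, relative to the wt mean, was 0.0087 ± 0.043 log2 units in aSYN/Hsp70, 0.014 ± 0.039 in aSYN, 0.038 ± 0.043 in Hsp70 and 0 ± 0.068 in wt (SD, n = 6). Every group spread over a wider range than the distance between group means, from -0.066 to 0.065 in aSYN/Hsp70, -0.058 to 0.049 in aSYN, -0.011 to 0.11 in Hsp70 and -0.088 to 0.064 in wt. In aSYN/Hsp70 against aSYN the median difference was 0.018, with 25 genes higher and 17 lower, where the median of all genes tested was -0.014. In aSYN/Hsp70 against wt it was 0.067 (26 higher, all genes -0.0074), in aSYN/Hsp70 against Hsp70 -0.0039 (20 higher, all genes -0.0093), in Hsp70 against wt 0.035 (29 higher, all genes 0.0056) and in aSYN against wt 0.0060 (22 higher, all genes 0.0082). Without aSYN/Hsp70 replicate 4 the aSYN/Hsp70 against wt median was 0.00758, and that against aSYN turned to -0.00785, with 20 genes higher and 22 lower, and to -0.0251 without the 4 arrays of low weight. With single arrays left out the median also took both signs in aSYN/Hsp70 against Hsp70 (-0.0524 to 0.0211) and in aSYN against wt (-0.0217 to 0.0256).

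**Figure D1:**
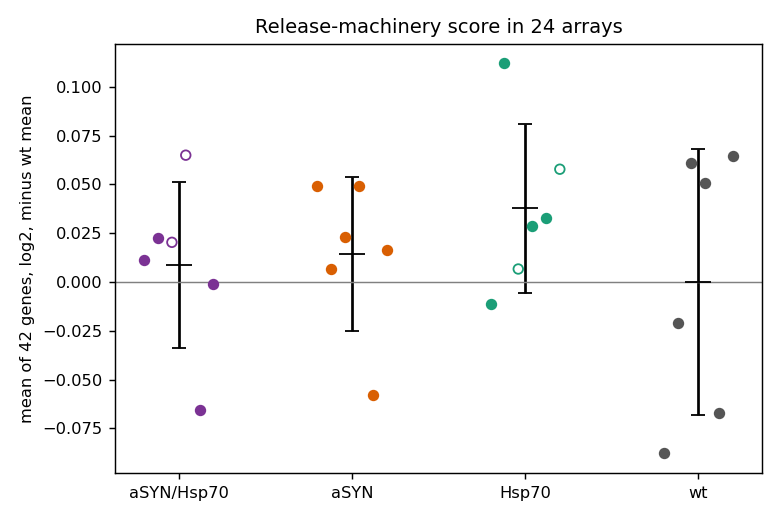
Mean of the 42 release-machinery genes in each of 24 arrays (vertical axis, log2 units relative to the wt mean) by genotype (horizontal axis). Points are arrays, open points the 4 arrays of weight under 0.5, and black bars mark mean ± SD; the ranges of the 4 genotypes overlap, from -0.066 to 0.065 in aSYN/Hsp70 to -0.088 to 0.064 in wt.

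Single probe sets were compared in 8 contrasts of 1 limma fit, with Benjamini-Hochberg adjustment over all 27022 probe sets. The only release-machinery calls at an adjusted p under 0.05 came in aSYN/Hsp70 against aSYN, where 2 of 102 sets passed, both of Syt1 and both higher, while 0.718% of all probe sets passed (0.496% higher). None of the 102 passed in aSYN against wt (0.0037% of all passed), nor in Hsp70 against wt, aSYN/Hsp70 against wt, aSYN/Hsp70 against Hsp70, the interaction, samples with Hsp70 against those without, or samples with aSYN against those without (0% of all passed in each). At an unadjusted p under 0.05 there were 27 of 102 in aSYN/Hsp70 against aSYN, 15 higher and 12 lower, where 19.6% of all sets lay under it (8.76% higher, 10.9% lower). In aSYN/Hsp70 against wt there were 18, 9 higher and 9 lower (14.5% of all sets, 6.08% higher and 8.44% lower), and in aSYN/Hsp70 against Hsp70 17, 11 higher and 6 lower (9.62%, 4.04% higher and 5.57% lower). Hsp70 against wt gave 4, 1 higher and 3 lower (4.83%, 2.33% higher and 2.5% lower), and aSYN against wt gave 2, 0 higher and 2 lower, both of Syt1 (5.17%, 1.86% higher and 3.31% lower). The interaction gave 12, 10 higher and 2 lower (8.13%, 4.34% higher and 3.79% lower). Samples with Hsp70 against those without gave 30, 17 higher and 13 lower (17.7%, 7.9% higher and 9.78% lower), and samples with aSYN against those without gave 6, 4 higher and 2 lower (6.39%, 2.58% higher and 3.81% lower). The comparisons share groups and so are not independent of each other. The interaction is the difference aSYN/Hsp70 minus Hsp70 less the difference aSYN minus wt.

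**Figure D2:**
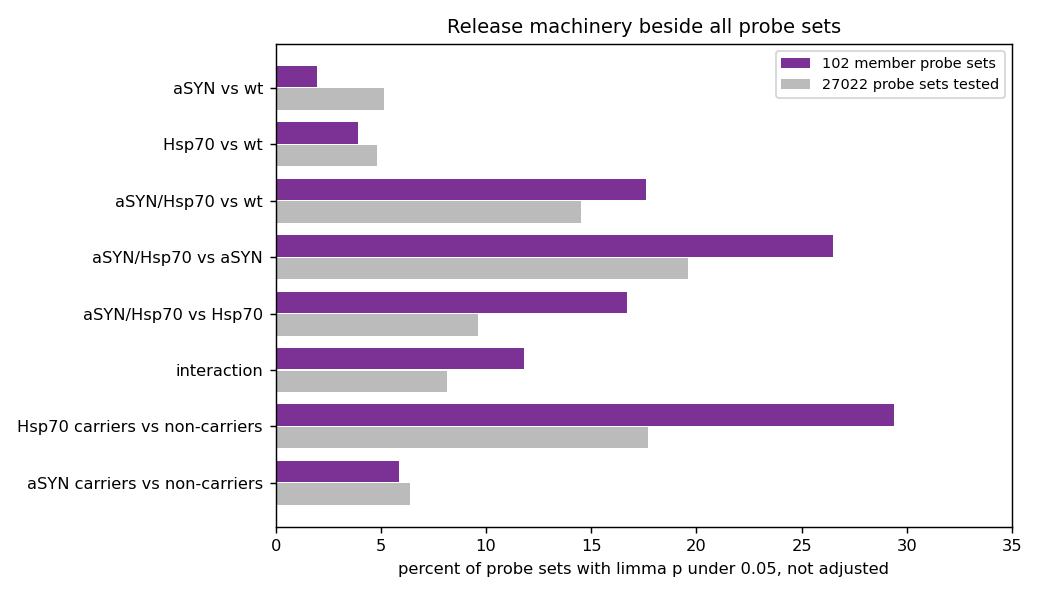
Share of probe sets with an unadjusted limma p under 0.05 (horizontal axis, percent) in each of the 8 comparisons (rows). Purple bars are the 102 release-machinery sets and grey bars all 27022 sets tested; in aSYN/Hsp70 against aSYN they reach 26.5% and 19.6%, in aSYN against wt 1.96% and 5.17%.

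The 27 sets at an unadjusted p under 0.05 in aSYN/Hsp70 against aSYN came from 20 genes. They held 6 of the 42 brightest sets and 21 of the 60 others, while over all genes with several sets the shares were 19.9% of brightest and 21.4% of other sets. In the interaction 0 of 42 brightest and 12 of 60 other sets lay under 0.05, against 6.96% and 10% over all such genes. The shares over all genes leave out genes with 1 tested set, whereas the 42 include 11 such genes, so the brightest shares are not of like genes. The 6 samples of each group stood fully apart in aSYN/Hsp70 against aSYN for 5 sets (2.05% of all sets), with Syt1, Cplx1, Vamp1 and Nsf higher and Cplx2 lower, and for 0 sets in the other 4 comparisons of groups (1.17% of all sets in aSYN against wt, 0.27% in Hsp70 against wt, 0.888% in aSYN/Hsp70 against wt and 0.311% in aSYN/Hsp70 against Hsp70).

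**Figure D3:**
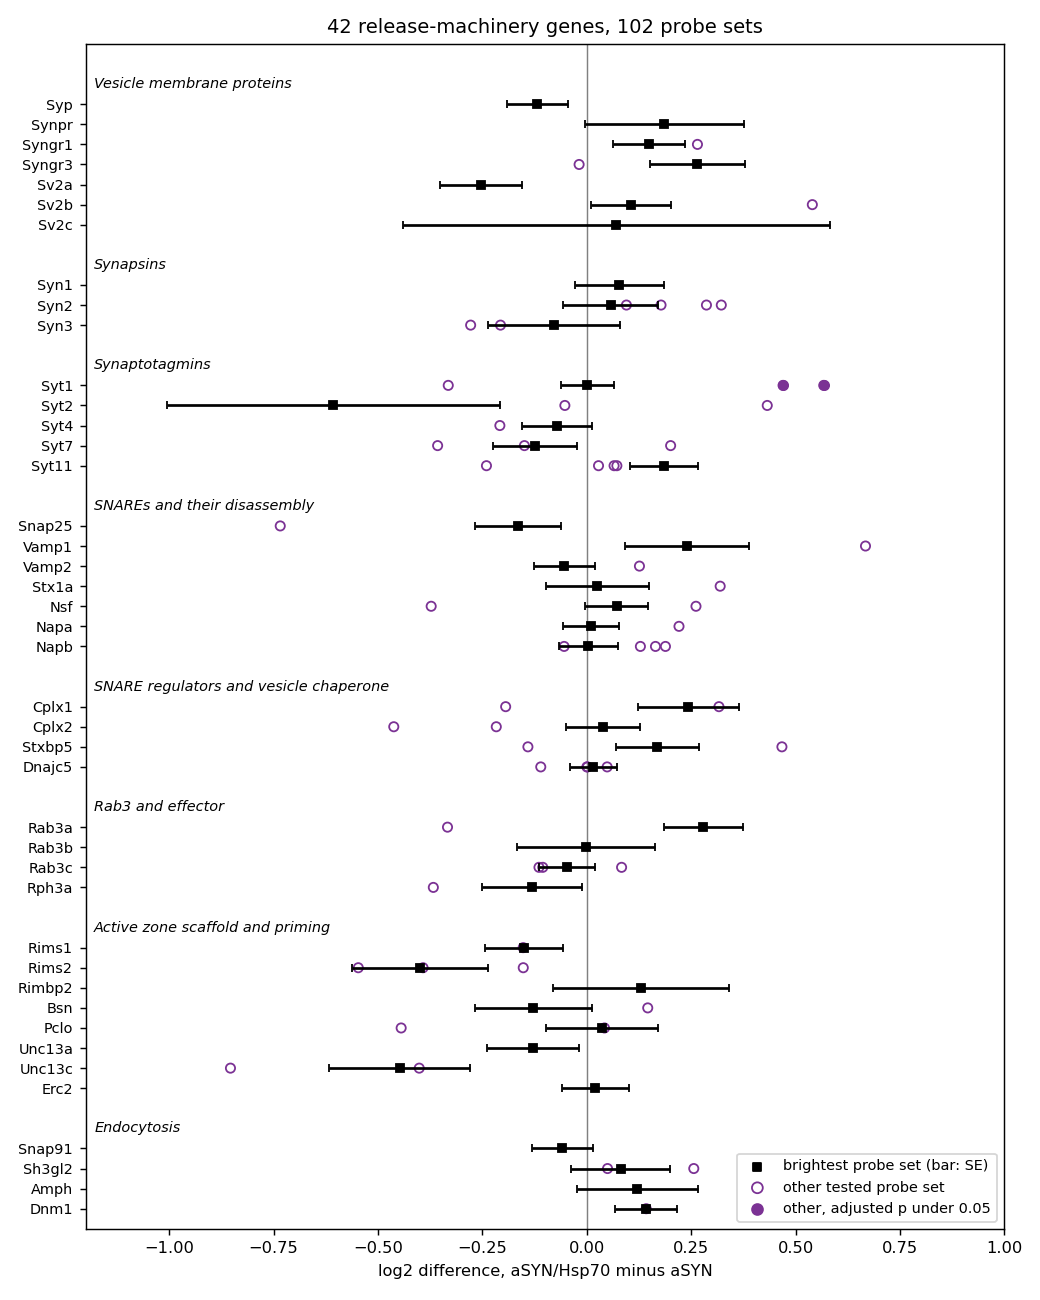
Log2 difference aSYN/Hsp70 minus aSYN (horizontal axis) for the 42 genes, grouped by role (rows). Squares are brightest probe sets with their SE, open circles other tested sets and filled circles the 2 sets with an adjusted p under 0.05, which are both of Syt1 and lie at 0.57 and 0.47 while the brightest Syt1 set lies at 0.0013.

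Proteins of the vesicle membrane held 7 genes, and in aSYN/Hsp70 against aSYN 5 of them stood above 0 and 2 below, none past the test, with a median of 0.11 that was 0.047 without aSYN/Hsp70 replicate 4. Synaptophysin, encoded by Syp and abundant in the vesicle membrane, measured 15.05, 15.12 and 15.21 (lowest, median and highest of 6) in aSYN/Hsp70, 15.12, 15.27 and 15.37 in aSYN, 14.85, 15.13 and 15.28 in Hsp70 and 15.12, 15.16 and 15.34 in wt. The 4 ranges overlapped, and the difference aSYN/Hsp70 minus aSYN was -0.12 (SE 0.074, adjusted p = 0.372). Sv2a, a vesicle glycoprotein that binds the antiepileptic drug levetiracetam, was at -0.25 (SE 0.099, adjusted p = 0.177), and Syngr3, a synaptogyrin, at 0.26 (SE 0.11, adjusted p = 0.209). The other Syngr3 set was at -0.018. Sv2b, a relative of Sv2a, had 2 sets at 0.11 (SE 0.096, adjusted p = 0.544) and 0.54 (SE 0.16, adjusted p = 0.0913). Sv2c was dim, and its 6 wt samples alone ran from 6.96 to 9.29.

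Synapsins, phosphoproteins that tether vesicles into the reserve pool, gave no call. Syn1 measured 15.07, 15.17 and 15.63 in aSYN/Hsp70, 14.96, 15.15 and 15.45 in aSYN, 15.01, 15.28 and 15.44 in Hsp70 and 14.99, 15.25 and 15.43 in wt. Its highest sample was aSYN/Hsp70 replicate 4, the groups overlapped, and the differences were 0.078 from aSYN (SE 0.11, adjusted p = 0.701) and 0.0034 from wt (adjusted p = 0.99). The first of these was 0.0013 without that array. The 5 tested sets of Syn2 lay between 0.058 and 0.32 in aSYN/Hsp70 against aSYN, and those at 0.29 and 0.32 had adjusted p of 0.202 and 0.17. All 5 were highest in aSYN/Hsp70 replicate 4 within that group, and without it they lay between -0.042 and 0.21, the brightest at -0.042 and the sets at 0.29 and 0.32 at 0.16 and 0.21. The 3 sets of Syn3 lay between -0.28 and -0.078, and between -0.23 and -0.012 without that array. With other single arrays left out, Syn3 set 1421248_at reached 0.083 and the brightest Syn3 set 0.0095. In samples with aSYN against those without, Syn2 set 1428460_at was at 0.17 (SE 0.072, adjusted p = 0.766), which came to 0.0797 without the 4 arrays of low weight.

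Among synaptotagmins, Syt1, the calcium sensor of fast release in forebrain neurons, held the only calls of the machinery. Its set 1421990_at measured 14.97, 15.34 and 15.50 in aSYN/Hsp70, 14.56, 14.78 and 14.85 in aSYN, 14.94, 15.13 and 15.36 in Hsp70 and 14.82, 15.08 and 15.30 in wt. All 6 aSYN/Hsp70 samples lay above all 6 aSYN samples, and the aSYN samples lay low beside the other groups, overlapping wt by its lowest sample. The mean was 15.32 ± 0.19 in aSYN/Hsp70 and 14.75 ± 0.10 in aSYN (SD, n = 6), a difference of 0.57 (SE 0.097, adjusted p = 0.0107), or 1.48-fold. Set 1431191_a_at measured 14.16, 14.48 and 14.57 in aSYN/Hsp70, 13.77, 13.93 and 14.32 in aSYN, 14.05, 14.25 and 14.61 in Hsp70 and 14.04, 14.35 and 14.48 in wt. Here aSYN/Hsp70 replicate 6 lay below aSYN replicate 2, so the groups overlapped. The mean was 14.44 ± 0.14 in aSYN/Hsp70 and 13.97 ± 0.19 in aSYN, a difference of 0.47 (SE 0.11, adjusted p = 0.0364).

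The brightest Syt1 set, 1433884_at, gave nearly the same values in both groups. It measured 16.60, 16.69 and 16.82 in aSYN/Hsp70, 16.58, 16.73 and 16.79 in aSYN, 16.67, 16.80 and 16.85 in Hsp70 and 16.58, 16.77 and 16.87 in wt, and aSYN/Hsp70 minus aSYN was 0.0013 (SE 0.064, adjusted p = 0.994). The dimmest set, 1438282_at, averaged 9.93 in aSYN/Hsp70 and 10.26 in aSYN, a difference of -0.33 (SE 0.27, adjusted p = 0.492). The 4 sets thus gave 2 calls upward, 1 difference near 0 and 1 downward difference that did not pass. With 1 array left out, the downward difference of 1438282_at ran from -0.4415 to -0.2069. The sources used here do not say where each set lies along the Syt1 transcripts. Neither called set passed against wt: 1421990_at and 1431191_a_at were at -0.32 (SE 0.097, adjusted p = 0.475) and -0.35 (SE 0.11, adjusted p = 0.452) in aSYN against wt and at 0.25 (adjusted p = 0.3) and 0.12 (adjusted p = 0.568) in aSYN/Hsp70 against wt. Their interactions were 0.51 (SE 0.14, adjusted p = 0.255) and 0.53 (SE 0.15, adjusted p = 0.287), and in samples with Hsp70 against those without 1421990_at was at 0.32 (SE 0.069, adjusted p = 0.149). With the 3′ minus 5′ signal as a covariate, a fit added after seeing the data, 1421990_at stood at 0.54 (adjusted p = 0.0488) and 1431191_a_at at 0.44 (adjusted p = 0.131). That fit kept the call of 1421990_at, which was lost when only the 12 arrays of the 2 groups were fitted (adjusted p = 0.0826). Set 1431191_a_at kept its call without aSYN replicate 2 or aSYN/Hsp70 replicate 6 and lost it without any other single array of these groups (adjusted p up to 0.0927).

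**Figure D4:**
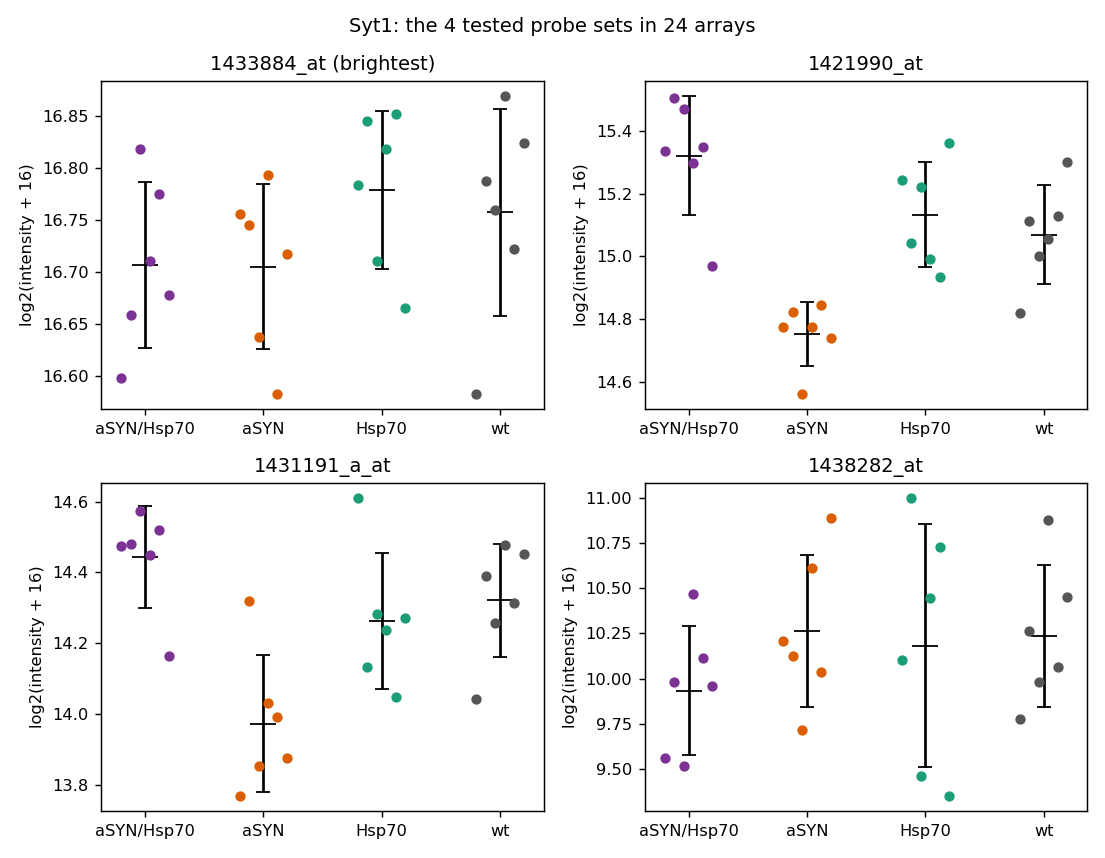
The 4 tested probe sets of Syt1 in 24 arrays (vertical axes, log2(intensity + 16), each panel with its own range) by genotype (horizontal axes). Points are arrays and black bars mark mean ± SD; in 1421990_at the aSYN/Hsp70 points, from 14.97 to 15.50, lie above the aSYN points, from 14.56 to 14.85, whereas in the brightest set the ranges coincide.

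Syt2, the fast calcium sensor of hindbrain and spinal synapses, was the most variable synaptotagmin. Its brightest set measured 8.18, 11.10 and 11.94 in aSYN/Hsp70, 11.07, 11.34 and 11.62 in aSYN, 10.93, 11.38 and 11.91 in Hsp70 and 11.04, 11.64 and 12.18 in wt. The 8.18 belonged to aSYN/Hsp70 replicate 4, and the difference from wt was -0.90 (SE 0.40, adjusted p = 0.326) with it and -0.39 without it. Its other 2 sets were at 0.20 and -0.16 against wt (adjusted p = 0.772 and 0.645). Beside Syt2, the 7 hindbrain and cerebellum genes tested of 12 all had a lower mean in aSYN/Hsp70 than in wt. Of these 7, 6 were also lower than wt in aSYN and 6 in Hsp70. Relative to the wt mean, their scores ran from -1.12 to 0.031 in aSYN/Hsp70 and from -0.75 to 2.05 in wt. The median scores were -0.28 and -0.40, so by medians aSYN/Hsp70 was not the lower group. The part of these genes in the Syt2 value was not tested. Syt7, linked to slower calcium-triggered release, was at -0.12 by its brightest set in aSYN/Hsp70 against aSYN (adjusted p = 0.501), and its dim set 1423012_at was at 0.43 in samples with aSYN against those without (SE 0.18, adjusted p = 0.766). Syt11 and Syt4, relatives not known as sensors of fast release, were at 0.18 (adjusted p = 0.22) and -0.072 (adjusted p = 0.648) by their brightest sets in aSYN/Hsp70 against aSYN. Syt11 sets ran from -0.24 to 0.18 there.

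Genes of the SNAREs and of their disassembly gave no call, with 5 of 7 higher in aSYN/Hsp70 than in aSYN and a median of 0.0099. The count was 4 of 7 without aSYN/Hsp70 replicate 4. Without aSYN/Hsp70 replicate 5 it turned to 2 higher and 5 lower, with a median of -0.0031. Snap25, on the plasma membrane side, measured 16.43, 16.68 and 16.88 in aSYN/Hsp70, 16.62, 16.84 and 16.95 in aSYN, 16.33, 16.75 and 16.88 in Hsp70 and 16.63, 16.77 and 16.96 in wt, with a difference of -0.16 from aSYN (SE 0.10, adjusted p = 0.373). Stx1a, its partner syntaxin, was at 0.026 (SE 0.12, adjusted p = 0.926), and Vamp2, the main vesicle SNARE of forebrain, at -0.053 (SE 0.073, adjusted p = 0.701). For the brightest sets of these 3 genes the ranges of the 4 genotypes overlapped. The other Stx1a set was at 0.32 from aSYN, and the other Vamp2 set lay on the other side of 0 from its brightest, at 0.13. A dim second set of Snap25, 1447763_at, averaged 9.16 in aSYN/Hsp70 and 9.89 in aSYN (difference -0.73, SE 0.25, adjusted p = 0.139). Vamp1, a vesicle SNARE of hindbrain and motor synapses, had set 1421862_a_at at 11.44, 11.88 and 12.48 in aSYN/Hsp70, 10.96, 11.21 and 11.38 in aSYN, 10.76, 11.55 and 12.12 in Hsp70 and 11.31, 11.47 and 11.57 in wt. The aSYN/Hsp70 samples lay above the aSYN samples without overlap, yet 0.67 (SE 0.19) carried an adjusted p of 0.084, and the brightest set was at 0.24 (SE 0.15, adjusted p = 0.368).

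Nsf, the ATPase that takes SNARE complexes apart, also separated aSYN/Hsp70 from aSYN in 1 of its sets. Set 1422455_s_at measured 15.35, 15.51 and 15.62 in aSYN/Hsp70, 15.17, 15.21 and 15.29 in aSYN, 14.88, 15.30 and 15.42 in Hsp70 and 15.26, 15.38 and 15.48 in wt. The difference aSYN/Hsp70 minus aSYN was 0.26 (SE 0.077, adjusted p = 0.0961) and the interaction 0.38 (SE 0.11, adjusted p = 0.32). The brightest Nsf set was at 0.071 (SE 0.074, adjusted p = 0.608), and in Hsp70 against wt it was at 0.16 (SE 0.074, adjusted p = 0.881). The adaptors of NSF gave 0.22 for Napa set 1416192_at (SE 0.089, adjusted p = 0.186) and 0.0099 for its brightest set (adjusted p = 0.947), and against wt 1416192_at was at 0.27 (SE 0.089, adjusted p = 0.274). The 5 Napb sets ran from -0.054 to 0.19 in aSYN/Hsp70 against aSYN, and set 1452444_at was at -0.29 in Hsp70 against wt (SE 0.13, adjusted p = 0.881), which came to -0.0833 without the 4 arrays of low weight.

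Transcripts of proteins that hold or help the SNARE complex were higher in aSYN/Hsp70 than in aSYN for 4 of 4 brightest sets, with a median of 0.10, none past the test. Without aSYN/Hsp70 replicate 4 it was 3 of 4, with a median of 0.064 and Dnajc5 at -0.0044. Cplx1 encodes a complexin, which clamps the partly zipped complex and promotes its fusion on calcium. Its set 1417747_at measured 14.77, 14.83 and 15.29 in aSYN/Hsp70, 14.46, 14.57 and 14.74 in aSYN, 14.64, 14.70 and 14.94 in Hsp70 and 14.72, 14.74 and 14.86 in wt. The aSYN/Hsp70 samples lay just above the aSYN samples, replicate 4 stood apart at 15.29, and the difference was 0.32 (SE 0.086, adjusted p = 0.0775). The other Cplx1 sets were at 0.24 (SE 0.12, adjusted p = 0.266) for the brightest and -0.19 (SE 0.086, adjusted p = 0.217). Cplx2, the second complexin, was at 0.039 by its brightest set and at -0.22 and -0.46 by the others (adjusted p = 0.829, 0.127 and 0.203), and against Hsp70 set 1436383_at was at -0.25 (SE 0.072, adjusted p = 0.293). Stxbp5, which encodes tomosyn, a brake on SNARE assembly, had set 1453021_at at 0.47 from aSYN (SE 0.14, adjusted p = 0.0951) and 0.45 from Hsp70 (SE 0.14, adjusted p = 0.323), of which 0.181 remained without the 4 arrays of low weight. The brightest Stxbp5 set was at only 0.17 from aSYN and 0.11 from Hsp70, and set 1430301_at was at -0.14 from aSYN. Dnajc5, which encodes the vesicle co-chaperone CSP-alpha, had 5 sets between -0.11 and 0.049 in aSYN/Hsp70 against aSYN, with adjusted p from 0.443 to 0.998.

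Rab3 proteins are GTPases that sit on vesicles and recruit them to the active zone, and Rph3a encodes their effector rabphilin. Of the 4 genes 1 was higher in aSYN/Hsp70 than in aSYN, and 2 without aSYN/Hsp70 replicate 4, none past the test. Rab3a measured 15.68, 15.86 and 16.31 in aSYN/Hsp70, 15.44, 15.66 and 15.83 in aSYN, 15.65, 15.85 and 16.04 in Hsp70 and 15.56, 15.68 and 15.75 in wt by its brightest set. Differences were 0.28 from aSYN (SE 0.095, adjusted p = 0.135), 0.27 from wt (SE 0.095, adjusted p = 0.283) and 0.23 for samples with Hsp70 against those without (SE 0.067, adjusted p = 0.197). Its other set, 1459980_x_at, went the other way, at -0.33 from aSYN and -0.35 from wt (adjusted p = 0.211 and 0.314). Without the 4 arrays of low weight the brightest set was at 0.127 from wt. Rab3c had 4 sets between -0.11 and 0.083 in aSYN/Hsp70 against aSYN. In Hsp70 against wt its set 1432432_a_at was at -0.73 (SE 0.24, adjusted p = 0.881) and at -0.313 without those arrays, with Hsp70 replicate 3 lowest at 11.31. The brightest Rab3c set was at -0.0092 in that comparison. Dim set 1432415_at was at -0.76 in samples with aSYN against those without (SE 0.35, adjusted p = 0.777) and at -0.504 without those arrays.

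Of the 8 active zone genes, 5 were lower and 3 higher in aSYN/Hsp70 against aSYN, with a median of -0.13, none past the test. Without aSYN/Hsp70 replicate 4 all 8 were lower, and the median was -0.13 as well. Unc13c, a Munc13 priming factor known from cerebellar granule cells, measured 11.65, 12.22 and 12.73 in aSYN/Hsp70, 12.36, 12.69 and 12.92 in aSYN, 11.78, 12.30 and 12.53 in Hsp70 and 12.30, 12.61 and 12.99 in wt. The medians of both groups with Hsp70 were the lower ones, all 4 ranges overlapped, and samples with Hsp70 against those without differed by -0.40 (SE 0.12, adjusted p = 0.197), which came to -0.219 without the 4 arrays of low weight. All 3 Unc13c sets were lower in aSYN/Hsp70 than in aSYN, at -0.45, -0.40 and -0.85 (adjusted p = 0.165, 0.293 and 0.254). Rims2, which links Rab3 to the release site, was lower in 4 of 4 sets, from -0.55 to -0.15, with adjusted p from 0.182 to 0.458, and Rims1 in 2 of 2 (both -0.15, adjusted p = 0.375 and 0.544). The giant scaffold genes Bsn and Pclo were at -0.13 (adjusted p = 0.626) and 0.037 (adjusted p = 0.9) by their brightest sets, and the other Bsn set was at 0.15. Pclo set 1452423_at measured 10.44, 10.82 and 10.95 in aSYN/Hsp70 and 10.73, 11.57 and 11.91 in wt, a difference of -0.65 (SE 0.19, adjusted p = 0.232). Against wt the brightest Pclo set lay on the other side of 0, at 0.13, and set 1455373_at was at -0.017. Rimbp2, which ties calcium channels to RIM proteins, was at 0.42 from wt (SE 0.21, adjusted p = 0.352), and at 0.19 without aSYN/Hsp70 replicate 4, which was highest at 13.33.

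Genes of vesicle retrieval were higher for 3 of 4 in aSYN/Hsp70 against aSYN, none past the test, and for 2 of 4 without aSYN/Hsp70 replicate 4, when the brightest Sh3gl2 set was at -0.060 and Amph at 0.015. Dnm1, the neuronal dynamin that pinches vesicles off, was at 0.14 in both sets (SE 0.074 and 0.084, adjusted p = 0.289 and 0.348), and Amph, which encodes amphiphysin, at 0.12 (adjusted p = 0.658). Sh3gl2, which encodes endophilin A, was at 0.081 by its brightest set (adjusted p = 0.723) and at 0.26 by set 1449228_at (SE 0.083, adjusted p = 0.116), whose interaction was 0.36 (SE 0.12, adjusted p = 0.387). That set was at -0.16 in aSYN against wt (SE 0.083, adjusted p = 0.98). Snap91, a clathrin adaptor, was at -0.059 (adjusted p = 0.671).

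Probe sets of one gene did not always lie on the same side of 0. In aSYN/Hsp70 against aSYN, 15 of the 31 genes with several sets had all of them on one side of 0 and 16 had them on both sides, and 43 of 60 other sets shared the sign of the brightest. Cplx1 and Rab3a had sets at an unadjusted p under 0.05 in both directions. Over the 24 arrays, with group means removed, the other sets followed the brightest set of their gene with a median Pearson r of 0.28 over 60 pairs, from -0.60 to 0.79. After adjustment over the 60 pairs, 10 pairs were positive and 3 negative at a permutation p under 0.05. The brightest Unc13c set and 1437319_at moved together (r = 0.79, Spearman's rho = 0.82, adjusted permutation p = 9e-04 and 6e-04, and r = 0.71 without the 2 arrays farthest out). Rab3a sets moved against each other (r = -0.59, adjusted permutation p = 0.013, rho = -0.48, adjusted permutation p = 0.118, and r = -0.40 without the 2 arrays farthest out). For Syt1 the called set 1421990_at had little correlation with the brightest set (r = 0.091, adjusted permutation p = 0.779, rho = -0.014, adjusted permutation p = 0.951, and r = -0.050 without the 2 arrays farthest out), and 1438282_at more (r = 0.65, adjusted permutation p = 0.00532, rho = 0.66, adjusted permutation p = 0.00924, and r = 0.64 without the 2 arrays farthest out).

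**Figure D5:**
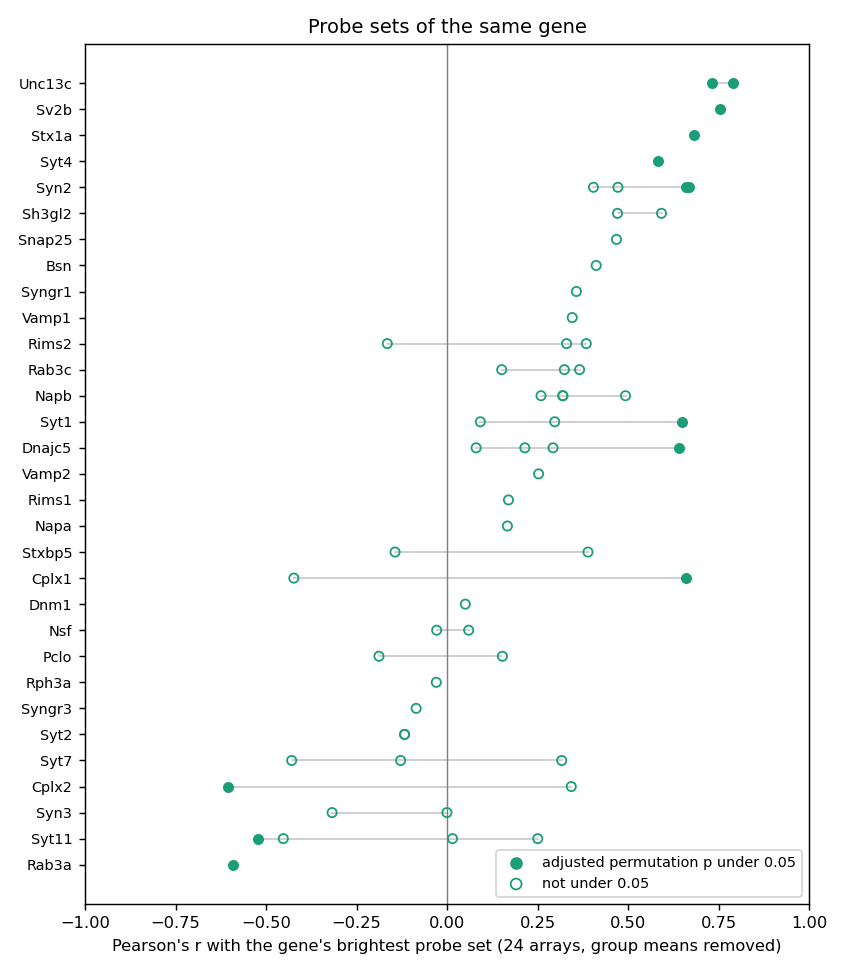
Pearson's r between each further probe set and the brightest set of the same gene (horizontal axis, 24 arrays with group means removed) for 31 genes (rows, ordered by median). Filled circles have an adjusted permutation p under 0.05; Unc13c lies at the positive end with 0.79 and 0.73 and Rab3a at the negative end with -0.59.

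A further 65 genes of the vesicle cycle, such as other synaptotagmins, SCAMPs, proton pump subunits and transmitter transporters, were read beside the machinery, and 62 were bright enough to test. In aSYN/Hsp70 against aSYN 39 were higher and 23 lower by their brightest sets, with a median of 0.076, and 1 of their 146 probe sets passed, where 0.718% of all sets did. It was set 1450247_a_at of Scamp5, a secretory carrier membrane protein, which averaged 12.99 in aSYN/Hsp70, 12.54 in aSYN, 12.80 in Hsp70 and 12.84 in wt (aSYN/Hsp70 minus aSYN 0.45, SE 0.10, adjusted p = 0.0423). The aSYN mean was the lowest of the 4, as it was for both called Syt1 sets. All of these sets were picked for being higher in aSYN/Hsp70 than in aSYN, which itself favours a low aSYN mean. At an unadjusted p under 0.05, 24 of the 146 sets were higher and 9 lower in that comparison, where 8.76% of all sets were higher and 10.9% lower. General neuronal genes gave no call: 6 of 14 were higher and 8 lower, and their score ran from -0.11 to -0.010 in aSYN/Hsp70 and from -0.024 to 0.071 in aSYN. Genes of myelin were lower for 9 of 10, of thalamus for 7 of 8 and of striatal neurons for 8 of 10, with medians of -0.15, -0.30 and -0.14. The thalamus score ran from -0.83 to -0.080 in aSYN/Hsp70 and from -0.17 to 0.042 in aSYN, the striatal score from -0.38 to -0.17 and from -0.24 to 0.019, and the myelin score from -0.72 to 0.046 and from -0.14 to 0.069. The part of these lists in the release-machinery values was not tested.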

How the data were processed

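The authors deposited linear intensities, 1 per probe set and array, per the series' value table. The summarising program was not given in the sources used here, and neither was the scaling. The mean intensity without the lowest and highest 2% averaged 2500 over the 24 arrays, while array medians ran from 458 to 893. Values were taken as log2(intensity + 16) and quantile normalised (limma 3.58.1, R 4.3.3). The 64 control and 18015 dimmest probe sets were left out. Of 45101 probe sets, 34958 carried 1 gene symbol, 932 several and 9211 were unnamed here. Symbols matched a RefSeq gene table by gene ID for 34754, with 0 changed.

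All 24 arrays entered 1 fit (lmFit, eBayes) with a mean per group and 8 contrasts. Adjusted p-values are limma's Benjamini-Hochberg values over 27022 probe sets. Correlations used 100000 permutations. Named are the sets called, then the smallest p in each comparison, and always the brightest sets of Syp, Syn1, Snap25, Syt1, Vamp2 and Stx1a; other sets were added after their values were seen. Members, roles and lists were chosen with earlier results of these data known. The fit was tested on simulated data. The number of arrays limits the precision. Alternatives covered normalisation, offset, dim filter, arrays fitted, replicate block, array weights, sex covariate, trended and robust variance, the mean over a gene's sets and each array left out. Fits without 4 arrays and with a 3′ minus 5′ covariate were added after seeing the data. Values of single sets and role groups without 1 array are differences of group means on the same normalised values, with no test. Figures used matplotlib 3.10.9.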

Additional observations from a re-analysis of the deposited data

Results flagged for a closer look

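Among 104 groups of 6 values, from the probe sets named by rule, 8 had 1 sample far from the rest by Dixon's 95% criterion, and chance flags about 1 in 20. In aSYN/Hsp70, replicate 6 stood low for Syt1 set 1431191_a_at (14.16, next 14.45), and replicate 4 stood high for Cplx1 set 1417747_at (15.29, next 14.90) and Syt7 set 1423012_at (10.44, next 9.37). In aSYN, replicate 3 stood low for Syt1 set 1421990_at (14.56, next 14.74). In Hsp70, replicate 6 stood low for Nsf set 1422455_s_at (14.88, next 15.26). In wt, replicate 3 stood high for Cplx1 set 1417747_at (14.86, next 14.76), replicate 2 high for Rab3c set 1432432_a_at (13.17, next 12.95) and replicate 1 low for Stx1a set 1437390_x_at (14.21, next 14.96).

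For 2 of the probe sets named by rule, every aSYN/Hsp70 sample lay above the Hsp70 mean while every aSYN sample lay below the wt mean. Only the sets named by rule were searched, most of them picked for small p in these same comparisons. The share over all sets tested was not computed, so the count is a description only. Cplx1 set 1417747_at was at 0.141 for aSYN/Hsp70 minus Hsp70 and at -0.174 for aSYN minus wt, and Nsf set 1422455_s_at was at 0.235 (0.103 without the 4 arrays of low weight) and -0.142. The limma interaction of neither passed (0.31, adjusted p = 0.51 for Cplx1, and 0.38, adjusted p = 0.32 for Nsf).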

How the results depend on the processing

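Release-machinery sets called in aSYN/Hsp70 against aSYN numbered 2. They were 1 with no dim filter, the replicate block, the sex covariate, without the 4 arrays of low weight or with the 3′ minus 5′ covariate, 0 with only the arrays of those groups, 4 with a trended and robust variance, and 1 to 4 with each array left out (4 without aSYN/Hsp70 replicate 6). Syt1 set 1421990_at stayed called in 12 of 12 such fits and in 9 of 10 others (adjusted p 0.002 to 0.0826), and set 1431191_a_at in 2 of 12 and 3 of 10 (0.014 to 0.138). Cplx1 set 1417747_at was called with array weights (adjusted p = 0.0383) and the trended variance (0.0377). With and without Hsp70, 0 to 1 sets were called with an array left out, the 1 being Syt1 set 1421990_at without aSYN/Hsp70 replicate 6 (adjusted p = 0.0399). The median of the 42 genes in aSYN/Hsp70 against wt was -0.0172 with array weights, -0.0203 without the 4 arrays, 0.00391 as a mean over all sets and 0.00758 to 0.0783 with an array left out. For aSYN/Hsp70 against aSYN it was 0.0182 and took the other sign with array weights (-0.0116), without the 4 arrays (-0.0251) and without aSYN/Hsp70 replicate 4 (-0.00785). In aSYN/Hsp70 against Hsp70 it was 0.0472 without quantile normalisation and -0.0574 with weights, and in Hsp70 against wt -0.0212 over all sets. The causes were not tested. Sets called or named for the smallest p kept their direction in 649 of 649 values. They were picked for small p on these same arrays, which favours a kept direction. The sets always named were not among these values, and some changed sign with 1 array left out. The brightest Syt1 set ran from -0.0234 to 0.023 in aSYN/Hsp70 against aSYN, and that of Stx1a from -0.0714 to 0.1432 in aSYN/Hsp70 against wt. Other sets did not always keep their direction with 1 array left out, and this is not given beside each of them. In aSYN/Hsp70 against aSYN they included Syn3 set 1421248_at (-0.577 to 0.083), the brightest Syt4 set (-0.106 to 0.0016) and the brightest Pclo set (-0.050 to 0.095). Deviations of same-numbered arrays of different groups correlated weakly (r from -0.148 to 0.193, 3 of 36 pairs over 0.1). Their median r was 0.0191, against -0.00757 for other pairs. Of 24 arrays, 8 correlated best with an array of their own number, and the count expected by chance was not computed. These values do not settle whether the numbers pair the samples.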

Other observations

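Among the 62 other vesicle cycle genes, the probe sets with the smallest p in further comparisons, chosen after their values were seen, did not pass the test. Itsn1 set 1442637_at, of an endocytic scaffold protein, averaged 9.48 in aSYN/Hsp70, 8.79 in aSYN, 9.05 in Hsp70 and 8.60 in wt, which is 0.89 above wt (SE 0.19, limma adjusted p = 0.154) and 0.70 above aSYN (SE 0.19, adjusted p = 0.0775). Sypl set 1422881_s_at, of a synaptophysin relative, was at -0.78 in aSYN/Hsp70 against aSYN (SE 0.21, adjusted p = 0.0798). Vti1a, a SNARE of the Golgi and endosomes, averaged 11.88 in aSYN/Hsp70, 11.59 in aSYN, 11.71 in Hsp70 and 11.87 in wt (interaction 0.46, SE 0.13, adjusted p = 0.332). Slc32a1, the vesicular GABA transporter, was at -0.27 in samples with Hsp70 against those without (SE 0.086, adjusted p = 0.197).

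Other marker lists gave these counts in aSYN/Hsp70 against aSYN. Astrocyte genes were higher for 7 of 12 (median 0.038), microglial genes for 3 of 11 (median -0.071), endothelial genes for 4 of 9 (median -0.012), hindbrain and cerebellum genes for 2 of 7 (median -0.066) and pituitary genes for 4 of 4 (median 0.84), the last with scores from -2.26 to 1.79 in aSYN/Hsp70 and from -1.88 to -1.07 in aSYN.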
